A study of Mus musculus with 12 samples.

Results

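The myeloid C-type lectin receptors are a group of surface receptors that share a lectin-like domain and by which macrophages, neutrophils and dendritic cells read sugars, lipids and damaged cells. The group was defined by name as 10 genes, and a gene was measured where the platform annotation gave a probe set that single symbol. This held for 8 genes with 12 probe sets, out of 17097 genes with such a probe set in the series: Clec7a, Clec4n, Clec4e, Clec4d, Clec5a, Clec10a, Clec4a2 and Clec1b. All 12 probe sets passed the filter on dim values. No probe set carried Clec4a3 or Clec12a as its single symbol, so these receptors were not analysed here.

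Total RNA of 4 groups was hybridised to 12 arrays, 3 for each group. Mouse hematopoietic cells came from wild type (B6) mice or from Ts1Cje mice, which carry an extra copy of part of chromosome 16. AML (acute myeloid leukaemia) cell lines expressing Trib1 came from both backgrounds and are titled B6 + Trib1 WT and Ts1Cje + Trib1 WT. The culture medium of every group was IMDM, to which fetal bovine serum (at 10%) and the growth factor IL-3 (at 5 ng/ml) had been added, without further treatment. Trib1 is a pseudokinase that directs the myeloid transcription factor C/EBP alpha to degradation. The labels give no age, no promoter for Trib1, and no count of mice, cultures or lines, so a group's 3 arrays may be technical repeats and the p-values cover no more than the spread among them. Trib1 expression and leukaemic state always went together and cannot be told apart.

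Array medians lay between 30.5 and 32.0, and the 40th percentile, used as the filter on dim values, between 22.0 and 23.5. The pan-leukocyte gene Ptprc (CD45) was bright in every group, with means between 2062 and 3037. Trib1 itself was not higher in the lines: its probe set that passed the filter had means of 76.2, 72.0, 46.2 and 45.9 in B6, Ts1Cje, B6 + Trib1 and Ts1Cje + Trib1. Whether that probe set reads the introduced copy is not given in the sources used here, so it does not check the labels. Markers of several cell types differed between the groups, and their values stand beside the results they move with.

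Receptors of this family signal in a few ways. Some carry a tyrosine motif of their own (Clec7a, Clec1b), and others borrow one from the adaptors Fcer1g (Clec4e, Clec4n, Clec4d) or Tyrobp (Clec5a), in each case recruiting the kinase Syk and, in phagocytes, the CARD9 complex. Clec4a2 carries the opposite kind of motif, an ITIM, which recruits the phosphatases Ptpn6 and Ptpn11 and dampens signalling. Clec10a binds galactose-type sugars and mainly serves uptake. Of the measured genes, 7 lie on chromosome 6 and Clec10a on chromosome 11, so none lies on the trisomic segment.

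Without Trib1, 6 of the 8 receptors were higher in Ts1Cje than in B6 cells and 2 were lower, and the arrays of 7 did not overlap. Of all 12560 genes tested, 52.6% passed in this comparison, 23.3% as higher and 29.3% as lower, and 60.3% had no overlap. In the Trib1 lines the picture turned: 7 of 8 receptors were lower in Ts1Cje + Trib1 than in B6 + Trib1, none was higher, and none overlapped. Of all genes 21.5% passed there, 11.9% as higher and 9.63% as lower, and 36.4% had no overlap. In such bulk samples fewer cells of a type and less RNA per cell cannot be told apart.

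Against the cells of the same background, 5 receptors fell in B6 + Trib1, 2 rose (Clec1b and Clec4e) and Clec5a did not pass. Of all genes 65.2% passed in that comparison, 34.1% as higher and 31.1% as lower, and 72.6% had no overlap, as 8 of the 8 receptors had none. In Ts1Cje + Trib1 against Ts1Cje, 7 receptors fell and Clec1b rose, again with no overlap in 8 of 8. There 60.8% of all genes passed, 34.1% as higher and 26.8% as lower, and 64.3% had no overlap. The falls were deepest for Clec10a and Clec7a, whereas Clec1b, the podoplanin receptor of platelets, was 23.3-fold brighter in B6 + Trib1 than in B6.

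Clec7a, Clec4n, Clec5a, Clec10a and Clec4a2 shared 1 order of the groups, from Ts1Cje down through B6 and B6 + Trib1 to Ts1Cje + Trib1. Over the 8 receptors, 23 of the 24 steps between groups next to each other in level showed no overlap between arrays. The exception was Clec1b in the B6 and Ts1Cje cells, where it was dim. Neither the shared order nor such steps were counted over all genes. In the pairwise comparisons, 36.4% to 72.6% of all genes had no overlap.

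**Figure D1:**
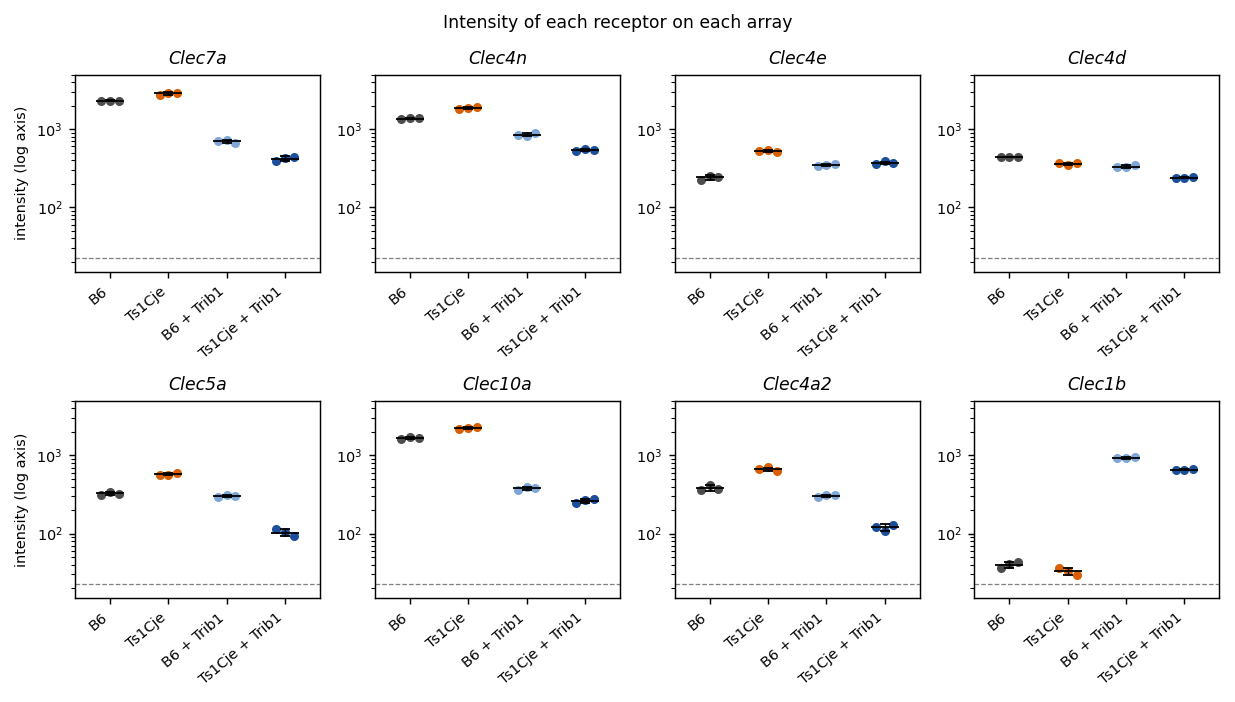
Intensity (log axis) of the 8 receptors on each of the 12 arrays, with 3 arrays per group as points, the black bar and whiskers giving the mean and SD, and the dashed line the median over arrays of the 40th percentile. Clec10a falls from means of 1673 and 2248 in the cells to 379.6 and 261 in the lines, while Clec1b goes from 39.9 and 32.9 to 929 and 658.

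Since 5 receptors shared an order of the groups and others did not, the bases before the receptor genes' starts were searched for the core motifs of PU.1 and C/EBP, transcription factors of the myeloid lineage. The sequences are those of RefSeq on GRCm38.p6, 250 bases long and ending at the base before the annotated start, and 8 of the 10 named receptors had an entry (Clec4n and Clec10a had none; where a gene had several starts, the first listed was used). The letters searched on both strands were GAGGAAGT and its end part GGAAGT for PU.1, and TTGCNNAA for C/EBP, whose reverse complement is TTNNGCAA. Of 27025 gene promoters of the same length, 2.44% held GAGGAAGT, 20% held GGAAGT and 9.55% held the C/EBP motif. Among the receptors, GGAAGT was found for Clec4a2 and Clec4d, the C/EBP motif for Clec4e and Clec12a, GAGGAAGT for 0 of 8, and none of these motifs for the other 4. Of the 3 measured receptors with a match, Clec4a2 is among those sharing the order, and Clec4d and Clec4e are not. Their windows are shown with that of Clec1b, the receptor that was higher in the lines of both backgrounds. Capitals mark the matches. Clec4a2 lies at chr6:123122440-123122689 on the plus strand and Clec4d at chr6:123261857-123262106 on the plus strand. The window of Clec4e is chr6:123289872-123290121 on the minus strand, and that of Clec1b is chr6:129397047-129397296 on the plus strand.
Clec4a2: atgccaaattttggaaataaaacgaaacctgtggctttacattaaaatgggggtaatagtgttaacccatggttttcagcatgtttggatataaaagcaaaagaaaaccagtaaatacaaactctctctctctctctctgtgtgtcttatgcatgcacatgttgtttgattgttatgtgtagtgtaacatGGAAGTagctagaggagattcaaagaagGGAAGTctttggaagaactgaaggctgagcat
Clec4d: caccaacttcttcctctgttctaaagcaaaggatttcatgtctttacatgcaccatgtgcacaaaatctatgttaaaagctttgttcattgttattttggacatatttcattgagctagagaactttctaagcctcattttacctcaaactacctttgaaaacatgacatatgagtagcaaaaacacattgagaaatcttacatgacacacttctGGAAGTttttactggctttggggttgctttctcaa
Clec4e: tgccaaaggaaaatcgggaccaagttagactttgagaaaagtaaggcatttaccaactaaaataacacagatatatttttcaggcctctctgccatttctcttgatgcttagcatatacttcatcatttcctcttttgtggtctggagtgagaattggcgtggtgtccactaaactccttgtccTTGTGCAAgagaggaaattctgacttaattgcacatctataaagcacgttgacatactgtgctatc
Clec1b: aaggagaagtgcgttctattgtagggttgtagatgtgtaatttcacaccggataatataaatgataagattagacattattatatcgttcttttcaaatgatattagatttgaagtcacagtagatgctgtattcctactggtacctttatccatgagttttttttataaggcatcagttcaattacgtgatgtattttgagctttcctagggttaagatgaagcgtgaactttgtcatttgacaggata

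The pair of GGAAGT matches of Clec4a2 begin 60 and 32 bases before the start, and that of Clec4d begins 35 bases before it. The C/EBP match of Clec4e, TTGTGCAA as read on the gene's strand, begins 66 bases before the start. These letter matches are descriptions, and whether any is bound was not tested.

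Clec4e (Mincle) recognises mycobacterial glycolipid and a protein of dying cells, and signals through Fcer1g. In B6 cells its intensities were 224, 254 and 247, and in Ts1Cje cells 527, 547 and 517. The Ts1Cje arrays were all higher, by 1.09 on the log2 scale (95% interval 0.98 to 1.19, adjusted p = 1.93e-09). In the lines they were 341, 351 and 362 for B6 + Trib1 and 363, 387 and 364 for Ts1Cje + Trib1. These sets lay side by side without overlap, and the difference of 0.07 did not pass (95% interval -0.03 to 0.18, adjusted p = 0.329). Averaged over both Clec4e probe sets it was 0.17 and passed (adjusted p = 0.0246), since the dimmer probe set had means of 94.4 ± 7.43 and 116 ± 3.14 (SD, n = 3 here and below). Against the cells of its own background Clec4e rose in B6 + Trib1 by 0.52 (adjusted p = 7.68e-07), and in Ts1Cje + Trib1 it fell by 0.50 (adjusted p = 7.65e-07). It was the 1 receptor with Trib1 differences of opposite sign that both passed.

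Clec4n (Dectin-2) binds fungal mannans and also uses Fcer1g. Its intensities were 1349, 1382 and 1369 in B6, and 1826, 1854 and 1901 in Ts1Cje. In B6 + Trib1 they were 840.5, 811 and 893, and in Ts1Cje + Trib1 528, 550.2 and 546. The Ts1Cje cells were the highest group and the Ts1Cje + Trib1 lines the lowest. The genotype difference was 0.44 without Trib1 (adjusted p = 1.45e-06) and -0.63 with it (adjusted p = 1.01e-07). The chosen probe set is marked as matching several transcripts. The other Clec4n probe set carries a different mark and was kept when cross-hybridizing probe sets were left out. It gave 0.54 and -0.60.

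Clec4d (MCL) pairs with Clec4e at the surface and raises its expression there. It went its own way without Trib1, being lower in Ts1Cje cells (367, 348 and 365) than in B6 cells (437, 438 and 445). The difference was -0.28 on the log2 scale (adjusted p = 5.07e-05). With Trib1 it was 323, 325 and 348 in B6 + Trib1 and 235, 237 and 242 in Ts1Cje + Trib1, a difference of -0.46 (adjusted p = 1.45e-06). Every step went down, and the whole range of group means, from 440.0 to 238, was narrow beside those of the other receptors. Its single probe set is marked as matching several transcripts, and no other Clec4d probe set was measured.

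Clec7a (Dectin-1), the beta-glucan receptor, was bright in the cells without Trib1. Its intensities were 2302, 2323 and 2322 in B6 and 2749, 2932 and 2918 in Ts1Cje, a rise of 0.31 (adjusted p = 0.000159). In the lines they were 696, 720.4 and 667 for B6 + Trib1 and 392, 424 and 444 for Ts1Cje + Trib1, a difference of -0.71 (adjusted p = 1.85e-07). The mean of the lines was thus 3.33-fold lower in the B6 background and 6.82-fold lower in the Ts1Cje background. On the log2 scale these differences were -1.72 and -2.73 (adjusted p = 2.44e-12 and 1.13e-14).

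Clec5a (MDL-1), which signals through Tyrobp and is known as a receptor for dengue virus, had intensities of 315, 340.1 and 324 in B6 and 566, 569 and 604 in Ts1Cje. Those of B6 + Trib1 were 295, 313 and 298, next to the B6 cells, and those of Ts1Cje + Trib1 were 113, 104 and 91.8. Its genotype difference was 0.80 without Trib1 and -1.43 with it (adjusted p = 1.95e-07 and 1.36e-09), the latter the widest of the 8 receptors in that comparison. In the B6 background the lines did not pass against the cells, with -0.11 (95% interval -0.23 to 0.02, adjusted p = 0.124). In the Ts1Cje background they fell by 2.34 (adjusted p = 4.22e-13).

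Clec4a2 (DCIR), the ITIM-bearing receptor, followed the same course as Clec5a. Its intensities were 356, 416 and 373 in B6, 661, 701 and 635 in Ts1Cje, 293, 310.0 and 311 in B6 + Trib1, and 121, 109 and 130.3 in Ts1Cje + Trib1. The genotype differences were 0.78 and -1.25 (adjusted p = 7.38e-07 and 1.68e-08). A further probe set marked as matching several transcripts gave 1.15 and -1.29. The third, dimmer one gave 0.90 without Trib1 but -0.15 with it, where its arrays overlapped and the probe set test did not pass (adjusted p = 0.261 with limma). The size of the genotype difference in the lines therefore depends on the probe set for Clec4a2.

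Clec10a (MGL1) takes up galactose-bearing ligands and is a marker of alternatively activated macrophages. Its intensities were 1640.3, 1732 and 1648 in B6 and 2211, 2231 and 2300.2 in Ts1Cje, a rise of 0.42 (adjusted p = 1.33e-05). They were 359, 393 and 387 in B6 + Trib1 and 243, 267 and 274 in Ts1Cje + Trib1, a difference of -0.51 (adjusted p = 5.5e-06). Clec10a had the deepest falls with Trib1 of all 8 receptors, to 22.7% of the mean in the B6 background and 11.6% in the Ts1Cje background (-2.10 and -3.04 on the log2 scale). Its neighbour on chromosome 11, Mgl2, which encodes a closely related galactose lectin, fell from 912 to 207 and from 1013 to 81.0.

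Clec1b (CLEC-2) is best known on platelets and megakaryocytes, where binding of podoplanin starts Syk signalling. Its intensities were 35.9, 41.0 and 42.8 in B6 and 36.2, 33.1 and 29.6 in Ts1Cje, close to the array medians. In B6 + Trib1 they were 916, 919 and 952, and in Ts1Cje + Trib1 652, 646 and 675. Every line array was far above every array without Trib1, by 4.10 in the B6 background (95% interval 3.98 to 4.22, adjusted p = 1.75e-15) and 3.81 in the Ts1Cje background (95% interval 3.69 to 3.93, adjusted p = 2.08e-15). Between the lines the difference was -0.49 (adjusted p = 2.59e-05). Between Ts1Cje and B6 cells it was -0.20 (adjusted p = 0.0099), with overlapping arrays. That call was lost without B6 array 3, without Ts1Cje array 3, and when arrays were centred on the median of the kept genes (adjusted p = 0.0506, 0.0504 and 0.114).

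The 7 measured megakaryocyte and platelet markers moved with Clec1b between lines and cells. All 7 rose with Trib1 in both backgrounds, for example Gp9 from 57.4 to 505 and Gp1bb from 195 to 1186 in the B6 background, and their summed intensity was 7092 to 7358 in B6, 6172 to 6379 in Ts1Cje, 14428 to 14748 in B6 + Trib1 and 12090.2 to 12738 in Ts1Cje + Trib1. Mast cell and basophil markers rose too, in 6 of 6 cases in both backgrounds, with Cpa3 going from 296 to 7471 in the B6 background. Erythroid markers rose in 3 of 3 cases in the B6 background and in 2 of 3 in the Ts1Cje background, and 0 fell. Stem and progenitor markers rose in 3 and fell in 1 of 4 cases in both backgrounds. Stroma markers rose in 2 and fell in 1 of 3 cases in both. Among all genes, 34.1% rose and 31.1% fell in the B6 background, and 34.1% and 26.8% in the Ts1Cje background. The part of these cell types in the Clec1b difference was not tested.

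Cells without Trib1 show the receptors under trisomy apart from the leukaemic lines. For Ts1Cje against B6 the median difference was 0.43 over the receptors and 0.01 over all genes. The rises ran from 0.31 for Clec7a to 1.09 for Clec4e. Monocyte and macrophage markers moved with them: 9 of 10 rose and 0 fell, and their summed intensity was 4885 to 4984 in B6 and 8561 to 8885 in Ts1Cje. Neutrophil markers rose in 8 of 9 cases, with sums of 29504 to 29861 and 40722 to 41271. Of 5 tested dendritic cell markers 1 rose and 1 fell. The sums of 6 dendritic cell markers, 5 of which passed the filter, overlapped (902 to 992 and 972 to 1017). The dendritic cell factor Zbtb46 was at 34.2 and 34.4. Other marker lists moved too. B cell markers fell in 5 of 6 cases and rose in 0, with sums of 4501 to 4836 in B6 and 1884 to 1991 in Ts1Cje. Stem and progenitor markers fell in 4 of 4 cases, and megakaryocyte and platelet markers fell in 5 and rose in 1 of 7. Mast cell and basophil markers rose in 4 of 6 cases and eosinophil markers in 2 of 4, with 0 falling in either list. Among all genes, 23.3% rose and 29.3% fell in this comparison. The part of these cell types in the receptor differences was not tested.

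Between the lines of both backgrounds the median was -0.57 over the receptors and 0.00048 over all genes. The differences that passed ran from -0.46 for Clec4d to -1.43 for Clec5a. Monocyte and macrophage markers fell in 6 and rose in 2 of 10 cases (summed 3102 to 3274 in B6 + Trib1 and 2150.4 to 2190.1 in Ts1Cje + Trib1), and neutrophil markers fell in 9 of 9. Eosinophil markers fell in 3 of 4 cases and megakaryocyte and platelet markers in 5 of 7, with 0 rising in either list. Mast cell and basophil markers rose in 3 and fell in 2 of 6 cases. Among all genes, 11.9% rose and 9.63% fell between the lines. The part of these cell types in the result was not tested either.

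**Figure D2:**
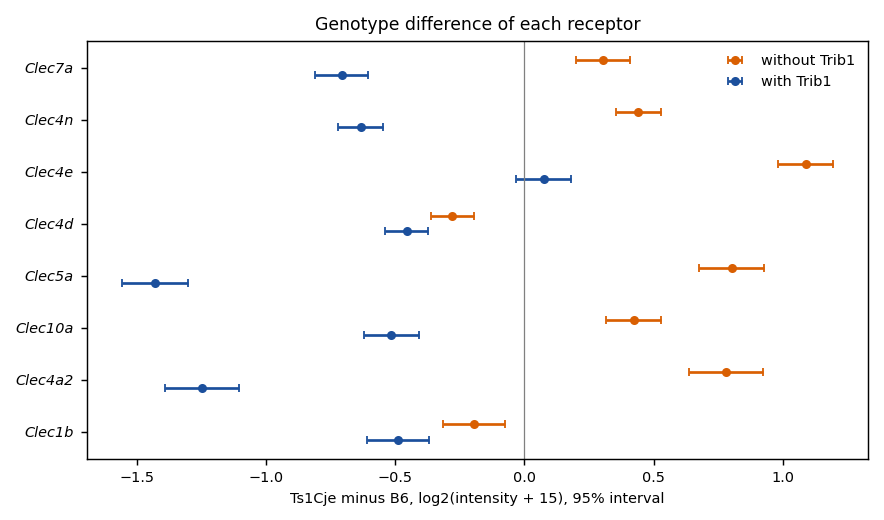
Difference between Ts1Cje and B6 on the log2(intensity + 15) scale for each receptor, without Trib1 (orange) and with it (blue), with 95% intervals from the fit over 12 arrays. For Clec7a, Clec4n, Clec5a, Clec10a and Clec4a2 the orange points lie above 0 and the blue points below it, while Clec4d and Clec1b lie below 0 in both.

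Whether genotype had another effect in the lines than in the cells was tested as an interaction. It passed as negative for 8 of 8 receptors, where 48.6% of all genes passed, 20.2% as negative and 28.4% as positive. It was -2.23 for Clec5a (adjusted p = 2.91e-10) and -2.03 for Clec4a2 (adjusted p = 2.24e-09). For Clec4n, Clec4e, Clec7a and Clec10a it lay between -1.07 and -0.94 (adjusted p between 8.9e-09 and 2.51e-07). For Clec4d it was -0.18 (adjusted p = 0.0163) and for Clec1b -0.29 (adjusted p = 0.00823). The calls of these last receptors were lost under other scales: that of Clec4d with arrays centred on the median of all probe sets (adjusted p = 0.0564), and that of Clec1b with an offset of 1 or a floor (adjusted p = 0.088 and 0.105). Of the 8 receptors, 5 were higher without Trib1 and lower with it. The share of all genes with that switch was not computed, so the count has no background to be read against.

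Lines set against cells of their own background show the receptors under Trib1 and leukaemia together. The receptor medians were -0.35 in the B6 and -2.05 in the Ts1Cje background, and those of all genes 0.03 and 0.02. The falls in the B6 background ran from -0.31 for Clec4a2 to -2.10 for Clec10a, and in the Ts1Cje background from -0.50 for Clec4e to -3.04 for Clec10a. The interaction given above is also the test of the difference between the backgrounds. Monocyte and macrophage markers fell in 6 and rose in 3 of 10 cases in the B6 background and fell in 8 and rose in 2 in the Ts1Cje background. Neutrophil markers fell in 8 of 9 cases in the B6 background and in 9 of 9 in the Ts1Cje background (medians -0.20 and -2.03), where their sums were 25165 to 25405 in B6 + Trib1 and 14877 to 15547 in Ts1Cje + Trib1. Of 5 dendritic cell markers 4 fell in each background (medians -1.62 and -1.30). The sums of 6 such markers, 5 of which passed the filter, were 395 to 398 in B6 + Trib1 and 329 to 395 in Ts1Cje + Trib1. Of 6 B cell markers 5 fell in each background, and their sum, 4501 to 4836 in B6 cells, was 157 to 175 in B6 + Trib1. The shares of all genes that rose and fell were 34.1% and 31.1% in the B6 background, and 34.1% and 26.8% in the Ts1Cje background. What part these cell types had in the receptor differences was not tested.

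**Figure D3:**
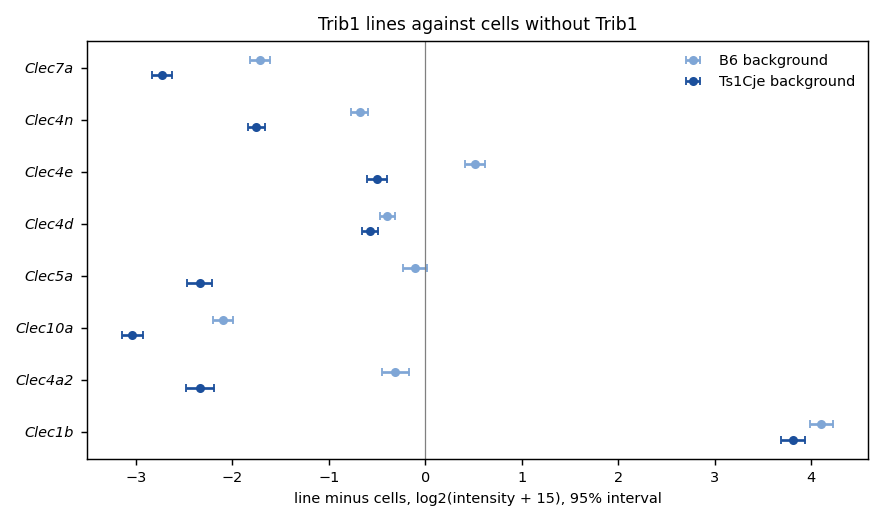
Difference between Trib1 lines and cells without Trib1 on the log2(intensity + 15) scale for each receptor, in the B6 background (light blue) and the Ts1Cje background (dark blue), with 95% intervals. Clec1b stands at 4.10 and 3.81, whereas Clec10a stands at -2.10 and -3.04 and Clec5a at -0.11 and -2.34.

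The balance of calls among all genes depended on the scaling. When arrays were centred on the median of the kept genes, an alternative chosen after the data were seen, 5186 genes were higher and 2338 lower in Ts1Cje against B6, in place of 2925 and 3677. In B6 + Trib1 against B6 the counts were 6427 and 2675 in place of 4283 and 3907, and for the interaction 2215 and 4041 in place of 3568 and 2541. The median of all genes moved by 0.11 in B6 + Trib1 against B6 and by -0.11 in the interaction. Under this scaling the receptor counts were the same, except that 1 receptor in place of 2 was lower in Ts1Cje against B6.

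The partners through which these receptors signal did not move as a block. Of 18 measured signalling partners, 8 were higher and 4 lower in Ts1Cje cells than in B6 cells, and between the lines 3 were higher and 5 lower (medians 0.08 and -0.07). Among all genes, 23.3% were higher and 29.3% lower in the cells, and 11.9% and 9.63% between the lines. Fcer1g, the adaptor of Clec4e, Clec4n and Clec4d, had means of 1520.0 ± 48.6, 2683 ± 119 and 2782 ± 11.1 in B6, Ts1Cje and B6 + Trib1, and of 3037 ± 59.2 in Ts1Cje + Trib1. It was thus higher in the lines than in the B6 cells, with differences of 0.87 and 0.18 from the cells of its background (adjusted p = 4.64e-10 and 0.00157). Clec4n and Clec4d fell in both backgrounds, whereas Clec4e rose in the B6 background (0.52) and fell in the Ts1Cje background (-0.50). The adaptor of Clec5a is next. Tyrobp, the adaptor of Clec5a, rose by 0.65 in the B6 background and did not pass in the Ts1Cje background (-0.03, adjusted p = 0.548). Its genotype differences were 0.43 and -0.25, both of which passed. The kinase Syk, with means between 91.7 and 117, passed in Ts1Cje + Trib1 against Ts1Cje (-0.31, adjusted p = 0.00513) and not in the other 3 pairwise comparisons.

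Further along the pathway, the Src-family kinase Fgr had genotype differences of 0.51 and -0.54, and protein kinase C delta, Prkcd, which acts between Syk and CARD9, of 0.25 and -0.39, all of which passed. Plcg2, the phospholipase downstream of Syk, was at 0.02 without Trib1 (adjusted p = 0.693) and fell by 0.41 with it. Among 7 phosphatases and ubiquitin ligases that restrain such signals, 1 rose and 3 fell without Trib1, and 1 rose and 5 fell with it. The shares of all genes were 23.3% and 29.3% without Trib1, and 11.9% and 9.63% with it. Ptpn6, a phosphatase that ITIM receptors recruit, rose by 0.23 without Trib1 and fell by 0.39 with it. Ptpn11, which they also recruit, went the other way without Trib1, being among the 3 that fell.

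Other receptors that signal through ITAM adaptors moved much as the lectins did. Of 10 measured, 9 rose and 0 fell without Trib1 (median 0.72), and with Trib1 8 fell and 0 rose (median -0.40). Among all genes, 23.3% rose and 29.3% fell without Trib1, and 11.9% rose and 9.63% fell with it. Trem3, a Tyrobp-coupled receptor of phagocytes, had means of 413 ± 6.5 and 850.5 ± 17.9 without Trib1 and of 246 ± 6.67 and 96.7 ± 4.92 with it. Trem2, a lipid receptor with the same adaptor, had genotype differences of 0.99 and -0.63. Of 8 other ITIM receptors, 8 rose without Trib1 and 6 fell with it (medians 0.23 and -0.41). Pilra had the widest rise among them, from 62.0 ± 2.69 to 191 ± 15.2, and with Trib1 it fell from 186 ± 3.34 to 84.9 ± 6.41. Sirpa, which receives the CD47 signal that restrains phagocytosis, fell from 346 ± 23.4 to 129 ± 17.6 with Trib1.

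**Figure D4:**
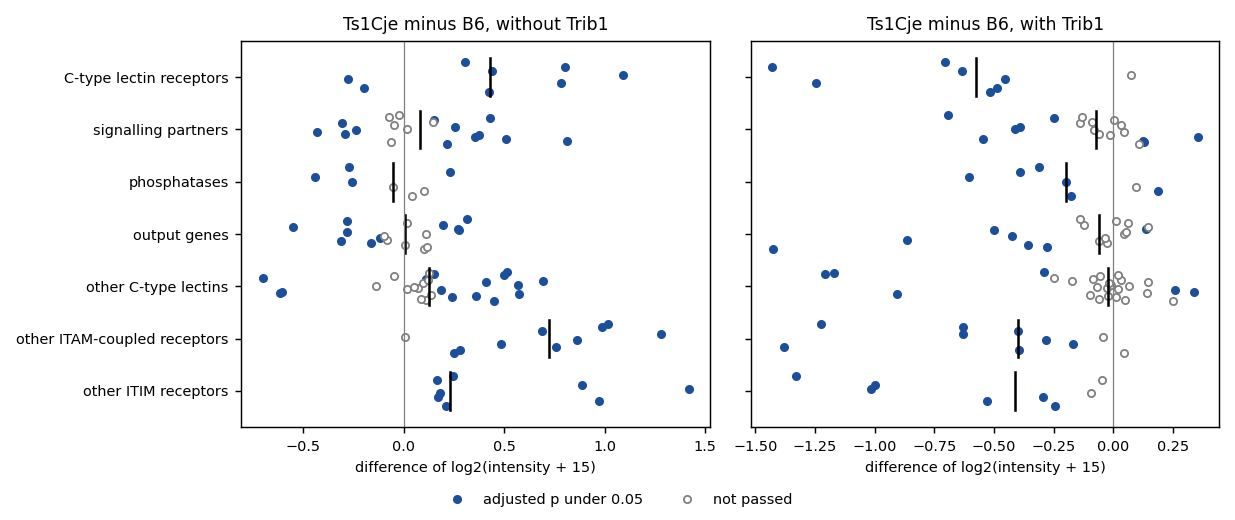
Difference between Ts1Cje and B6 on the log2(intensity + 15) scale for the genes of 7 lists, without Trib1 (left) and with it (right), with each point a gene (filled at an adjusted p under 0.05) and the black bar the list's median. The medians of the C-type lectin receptors are 0.43 and -0.57 and those of the other ITAM-coupled receptors 0.72 and -0.40.

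Other C-type lectins were more mixed. Of 26 measured genes, 12 were higher and 3 lower in Ts1Cje cells, and 2 were higher and 4 lower in the Ts1Cje + Trib1 lines (medians 0.12 and -0.02). The shares of all genes were 23.3% and 29.3% in the cells, and 11.9% and 9.63% in the lines. The mannose receptor Mrc1 of macrophages went from 4147 ± 61.8 in B6 to 208 ± 19.2 in B6 + Trib1, and from 4537 ± 207 in Ts1Cje to 84.0 ± 7.32 in Ts1Cje + Trib1. Cd302 was dim, with genotype differences of 0.57 without Trib1 and -0.91 with it. Cd69, an activation marker whose gene lies beside the Clec7a cluster, rose with Trib1 by 1.43 and 2.19. Podoplanin, Pdpn, the ligand of Clec1b, went the other way from its receptor, falling from 156 ± 11.3 to 33.1 ± 4.21 in the B6 background and from 236 ± 15.6 to 29.6 ± 0.418 in the Ts1Cje background. Sap130 was listed for a nuclear protein that Clec4e recognises when cells die, but this gene encodes another protein of that name. It passed in none of the comparisons (differences of 0.02, 0.03, 0.14 and 0.15), and these values do not cover the Clec4e ligand.

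Most measured receptor genes on chromosome 6 lie in 1 of a pair of gene clusters. In the reference gene table of GRCm38.p6, Clec4a3, Clec4a2, Clec4n, Clec4d and Clec4e lie in a cluster of lectin genes, and Clec12a, Clec1b and Clec7a in another. Of 16 genes listed in and around the first cluster 6 were measured, and of 13 in and around the second 7 were. In the first cluster, Clec4a2, Clec4n and Clec4d fell with Trib1 in the B6 background (-0.31, -0.68 and -0.39), while Clec4e, next to Clec4d, rose by 0.52. In the Ts1Cje background these 4 receptors all fell, with -2.34 for Clec4a2, -1.75 for Clec4n, -0.57 for Clec4d and -0.50 for Clec4e. Clec4b1, dim with means between 14.7 and 44.8, rose by 0.69 in Ts1Cje against B6. In the second cluster Clec1b rose in both backgrounds (4.10 and 3.81) and Clec7a fell in both (-1.72 and -2.73), with Clec1a between them at 0.11 and -0.01 and dim in every group (means from 22.3 to 25.2). Olr1, the oxidised LDL receptor next to Clec7a, fell in both backgrounds (-1.66 and -2.47).

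**Figure D5:**
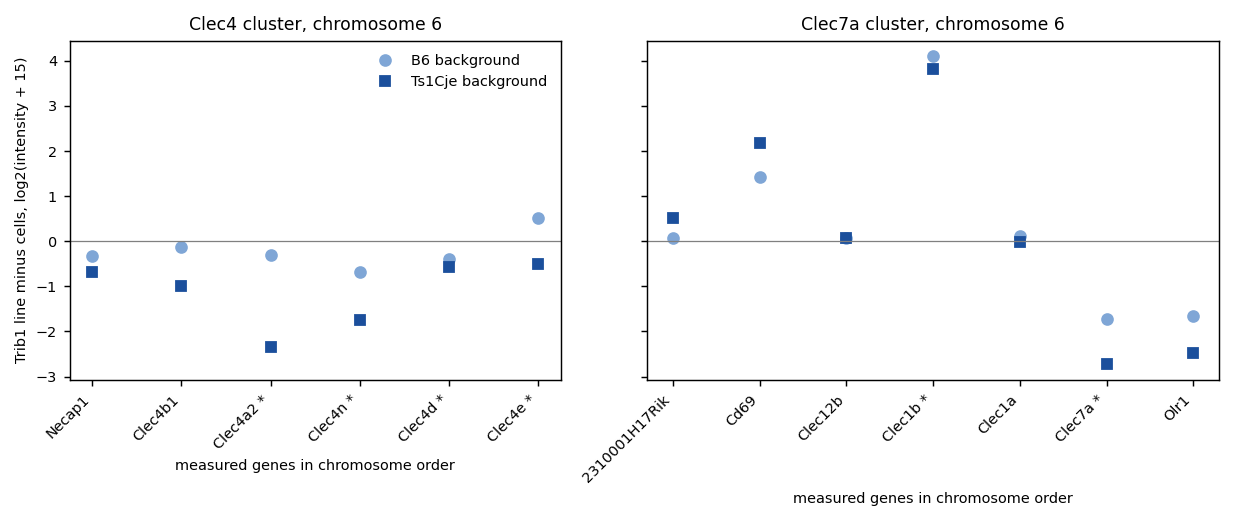
Difference between Trib1 lines and cells without Trib1 on the log2(intensity + 15) scale for the measured genes of both chromosome 6 clusters in their order on the chromosome, in the B6 background (circles) and the Ts1Cje background (squares), with asterisks on the receptors described. Clec1b at 4.10 and 3.81 stands 2 places from Clec7a at -1.72 and -2.73.

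Each receptor was set beside the genes most like it, by Pearson's r of log2(intensity + 15) over the 12 arrays, which fall into 4 groups. The best match had an r between 0.990 and 0.999. For Clec4n it was Cd68, a lysosomal glycoprotein of macrophages, and for Clec7a it was Lgals3, galectin-3. Second were Slc40a1 for Clec4n and Snx9 for Clec7a, and Clec10a matched Plxnd1 and Mfsd1. For Clec5a it was S100a9, a neutrophil calcium-binding protein, and for Clec4a2 the plasma protein haptoglobin, Hp, with Vcan (versican) second for both. Clec4e matched Gpx3 and Padi4, the latter at means of 147, 479.7, 273 and 269 in B6, Ts1Cje, B6 + Trib1 and Ts1Cje + Trib1. Clec1b matched Chn2 and Specc1, and Clec4d matched Tfpi, the inhibitor of tissue factor, and Kmo.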

How the data were processed

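The authors deposited 1 table with the intensity of 45141 probe sets on a linear scale for 12 arrays. The submitters' processing notes name MAS5, which uses mismatch probes, whereas the probe set names (PM) are of an array without them. How the deposited intensities were summarised and scaled is therefore not given in the sources used here. The platform annotation gave 28898 probe sets a single symbol, 551 several and 15588 none, besides 104 controls. Probe sets with a single symbol were tested if they exceeded the 40th percentile of their array on at least 3 arrays. This left 20066 for 12560 genes, each gene shown by its probe set with the highest mean. Values were log2(intensity + 15), an offset that draws differences of dim genes towards 0. All 12 arrays entered one limma fit (version 3.58.1, R 4.3.3) with a mean for each group, checked on simulated data. Tests were two-sided, and Benjamini-Hochberg adjustment ran over the 12560 genes with a threshold of 0.05. The interaction subtracts the genotype difference of the cells from that of the lines.

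The 10 receptors, the gene lists and the motifs were chosen with earlier results of these data known. Named list genes are among the 4 with the smallest adjusted p of a list in a pairwise comparison. Also named are the 2 genes most like each receptor, and genes among or within 3 places of the receptor genes. Ptprc, Syk, Gp9, Gp1bb, Cpa3 and Zbtb46 were named after their values were seen. Alternatives concerned scaling, offset, filter, probe set rule, variance model, arrays fitted and the replicate block, and each array was left out in turn.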

Additional observations from a re-analysis of the deposited data

Results flagged for a closer look

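For all 8 receptors the genotype difference with Trib1 differed from that without it by limma's interaction test. The interaction, on the log2 scale, was -2.03 for Clec4a2, -2.23 for Clec5a, -1.07 for Clec4n, -1.01 for Clec4e and -1.01 for Clec7a. It was -0.94 for Clec10a, -0.29 for Clec1b and -0.18 for Clec4d. Among all genes, 48.6% passed this test in either direction and 20.2% as negative. The calls of Clec4d and Clec1b were lost under other scales, as given above. Groups of 3 arrays are too small for a check of single outlying arrays.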

How the results depend on the processing

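Of 947 receptor values, under 12 other settings and with each of 12 arrays left out, 938 kept their direction and their side of the threshold and 1 reversed. Many of these values had little room to change. The settings of filter, variance model, groups fitted and replicate block left every receptor difference as it was, so only its call could change. The same held where the array left out belonged to neither group of a pairwise comparison. The replicate numbers do not pair the arrays by the labels: deviations of arrays with the same number correlated between -0.45 and 0.35, and 3 of 12 arrays resembled their own number best. With the replicate block 6 receptors were higher and 2 lower in Ts1Cje against B6, no receptor call changed, and calls over all genes there went from 6602 to 6352. The count of receptors lower in Ts1Cje against B6 was 1 in place of 2 without cross-hybridizing probe sets, where Clec4d has none, and 1 with centring on the kept genes. It ranged from 1 to 2 when arrays were left out. When probe sets of a gene were averaged, 1 receptor in place of 0 was higher in Ts1Cje + Trib1 against B6 + Trib1. Clec5a in B6 + Trib1 against B6 reversed to 0.0032 with centring on the kept genes (adjusted p = 0.965), and passed when only the groups compared were fitted (adjusted p = 0.0495). Over all genes, that centring took the higher calls from 2925 to 5186 and the lower from 3677 to 2338 in Ts1Cje against B6, the higher from 4283 to 6427 in B6 + Trib1 against B6, and the interaction from 3568 positive and 2541 negative to 2215 and 4041. The causes were not tested. The number of arrays limits the precision.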

Other observations

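Genes that this receptor pathway is known to induce in phagocytes, chemokines and cytokines among them, moved apart from each other in the lines. Of 17 measured, 6 rose and 10 fell in the B6 background, and 5 rose and 7 fell in the Ts1Cje background. Of all genes, 34.1% rose and 31.1% fell in the B6 background, and 34.1% and 26.8% in the Ts1Cje background. Il6, a cytokine, rose from 794 ± 15.7 to 2525 ± 66 and from 962 ± 48.7 to 2779.6 ± 41.2 (SD, n = 3), and the early response factor Egr1 rose by 2.18 and 2.27. The monocyte chemokine Ccl2 fell from 2564 ± 45.9 to 393 ± 12.9 and from 2754 ± 76.8 to 138 ± 19.9. Cxcl2, a neutrophil chemokine, fell in both backgrounds (-2.00 and -2.79). Between genotypes 4 rose and 6 fell without Trib1, and 1 rose and 6 fell with it. The shares of all genes were 23.3% and 29.3% without Trib1, and 11.9% and 9.63% with it.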
